A study of Mus musculus with 3 samples.

Results

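The genes described here are those that set OP9-DL, the OP9 line with GFP and Delta-like 1, apart from both the parental OP9 line and the line with GFP alone (OP9-GFP). A gene was a member where its intensity on the OP9-DL array was at least 2-fold above, or at least 2-fold below, the intensity on each of the other arrays. Of 11359 named genes bright enough to compare, 314 met this rule, 117 of them higher and 197 lower in OP9-DL. For comparison, the same rule set OP9 apart at 723 genes and OP9-GFP at 200.

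All lines come from OP9, a stromal line started from skull bone (calvaria) of newborn mice of the genotype B6C3Fe-a/a-Csf1op/Csf1op. Csf1op is the osteopetrotic mutation of macrophage colony-stimulating factor, so all 3 groups carry it, the control included. The cells were grown in aMEM with 20% FBS and received no treatment. OP9 was the control, OP9-GFP expressed GFP, and OP9-DL expressed GFP and Delta-like 1. Each line was measured once, on 1 one-colour array with Cy5-labelled RNA. How the genes were introduced, and whether a line is 1 clone or a pool, is not stated in the labels. With 1 array per line there is no replicate check, no error and no test for any difference below. What Delta-like 1 does and whatever else differs between these cultures cannot be told apart. Nor can fewer cells of a kind be told from less RNA per cell, since RNA came from whole cultures.

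Delta-like 1 is a membrane-bound ligand of the Notch receptors. A cell that carries it activates Notch on a neighbouring cell: the bound receptor is cut, and its intracellular part enters the nucleus and turns on target genes through the DNA-binding protein Rbpj. OP9 cells with Delta-like 1 are a standard feeder layer on which blood progenitors develop into T-lineage cells, and plain OP9 cells are a feeder for other blood lineages. The series is titled after Delta-like 1 as an adhesion molecule for mast cells, so proteins of the stromal cell surface were of interest as well as Notch genes.

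Intensities are the authors' scaled values, with a median of 20 on each array, and are given in the order OP9, OP9-GFP and OP9-DL. Folds follow in the order OP9-DL against OP9, then against OP9-GFP. Dll1 itself read 14, 20.5 and 333.3, which was 23.8-fold and 16.3-fold higher in OP9-DL, as its label says. Whether this probe read the introduced RNA, the cells' own RNA or both was not tested. Of 12 stromal markers bright enough to compare, 11 were not members, and the lower one was Col3a1. The summed stromal marker intensity was 31530.5, 38368.1 and 41100.5, but most of it was Vim alone (18420.0, 25328.1 and 32110.4). Of the compared markers, Vim, Vcam1, Twist1 and Kitl read highest on OP9-DL. Lowest there were Col3a1, Pdgfra (800.6, 166.1 and 127.1), Pdgfrb (418.3, 277.8 and 221.1), Cxcl12 (3720.4, 4411.3 and 1997.4) and Col1a2. The collagen Col1a2 was bright on every array (6612.6, 5922.4 and 5145.3), whereas Thy1 (1.1, 1.7 and 3.0) was near the bottom of the scale.

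Counted by probes, 151 of the 15581 compared were higher in OP9-DL than in both others (0.969%) and 229 were lower (1.47%), 380 in all (2.44%). The same rule set OP9 apart at 620 higher (3.98%) and 343 lower probes (2.2%), and OP9-GFP at 123 higher (0.789%) and 137 lower probes (0.879%). Of these, 66 had no single gene symbol and are counted only. Differences just over the threshold were the most common: 91 of the higher and 129 of the lower probes were under 3-fold from the nearer of the other arrays. At least 4-fold from both were 42 higher and 67 lower probes, at least 8-fold 19 and 18, and at least 16-fold 6 and 9. The smaller of both folds had a median of 2.69 among higher and 2.79 among lower probes.

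**Figure D1:**
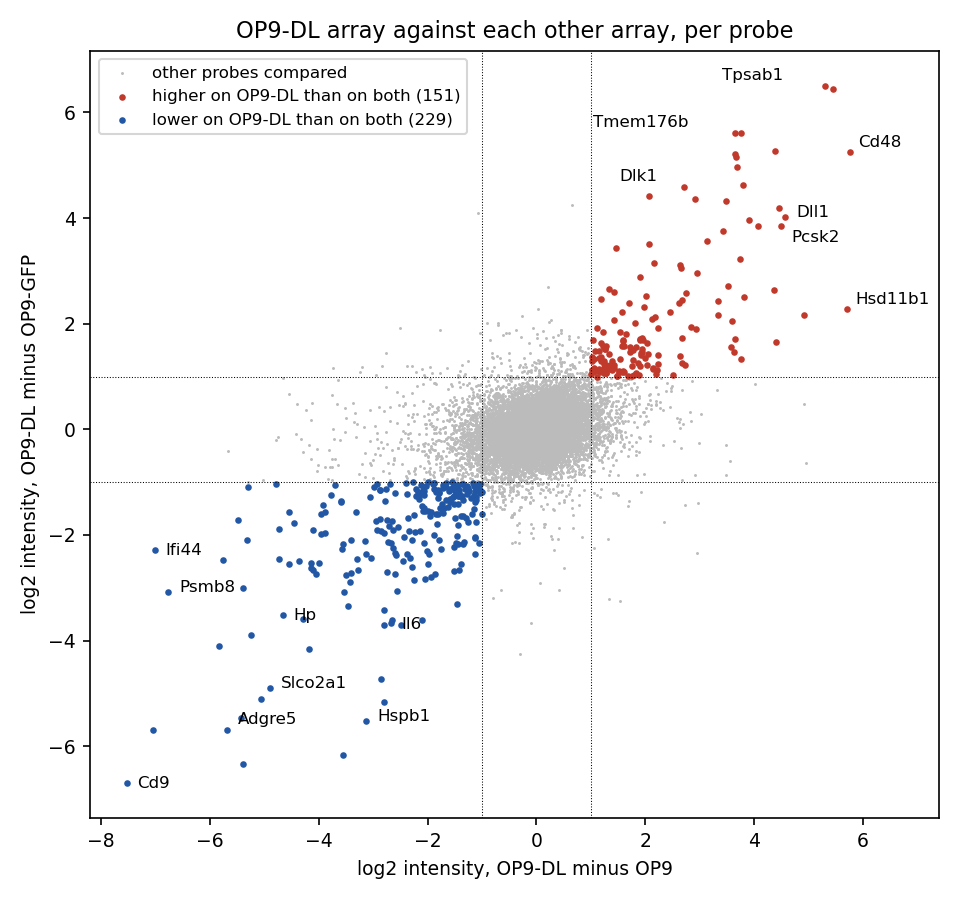
Difference in log2 intensity between OP9-DL and OP9 (horizontal axis) and between OP9-DL and OP9-GFP (vertical axis) for the 15581 compared probes, with members in colour and leading genes named. The 151 higher probes fill the upper right corner and the 229 lower probes the lower left, and most members lie just past the 2-fold lines.

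The rule has a sharp edge in a continuous range. Just inside it were D630003M21Rik (130.5, 126.2 and 261.9) among the higher genes and Runx1 (49.0, 20.2 and 10.1), exactly 2-fold below OP9-GFP, among the lower ones. Just outside were Gsto2 (20.2, 23.5 and 46.9) and Slc22a21 (33.5, 33.9 and 16.8), whose smaller folds were 1.996 and 1.994. Members were not all bright. Of the higher probes 21, and of the lower probes 29, reached 20 on no array, and in 76 of the lower probes the OP9-DL value lay under 6.13, the brightness limit. Counted separately, both control values lay under that limit in 21 of the higher probes. These passed the limit on the mean only through their OP9-DL value. Cd48, Nlrp2 and Scg5, which are counted on lists below, are among them.

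One feature of the OP9-DL array bears on the lower genes. When the compared probes were put in the order of their probe numbers, 18 of the 229 lower probes fell into 1 run of 100 neighbours, where the median run held 1. The same scan gave at most 5 for the higher probes of OP9-DL, 5 for either direction in OP9-GFP, and 13 and 9 for OP9, which had more probes apart in all. The crowded stretch was made of all runs of 100 with at least 10 lower probes. Its larger share of lower probes follows from that choice. Within it, 23 of 215 compared probes were lower (10.7%) and 4 were higher (1.86%). Of the 15366 probes outside it, 206 were lower (1.34%) and 147 higher (0.957%). The median difference within it was -0.14 on the log2 scale against OP9 and -0.16 against OP9-GFP, whereas outside it was 0.02 and -0.01.

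Blank cells in the stretch numbered 40, 45 and 55 of 407 probes. Neither labels nor files give the place of a probe on the slide, and the part this stretch plays in its members' values was not tested. Without it, the counts are 147 higher and 206 lower. Its lower genes are Abca7, AI837181, Ap4m1, Arl16, Asah2, Eif3i, Gper1, Gprc5b, Iws1, Jdp2, Kank2, Mmachc, Nrn1, Pdgfc, Psmg2, Sord, Srfbp1, Sumf2, Tmub2, Trim39, Tubgcp2, Zfp521 and Zmym5, and its higher genes are Arxes2, Dyrk3, Klhdc8a and Rgs20. Eif3i, a subunit of a translation initiation factor that every cell uses, is among them (3379.6, 3295.8 and 1236.3). Where these genes appear below, they are marked as lying in this stretch.

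**Figure D2:**
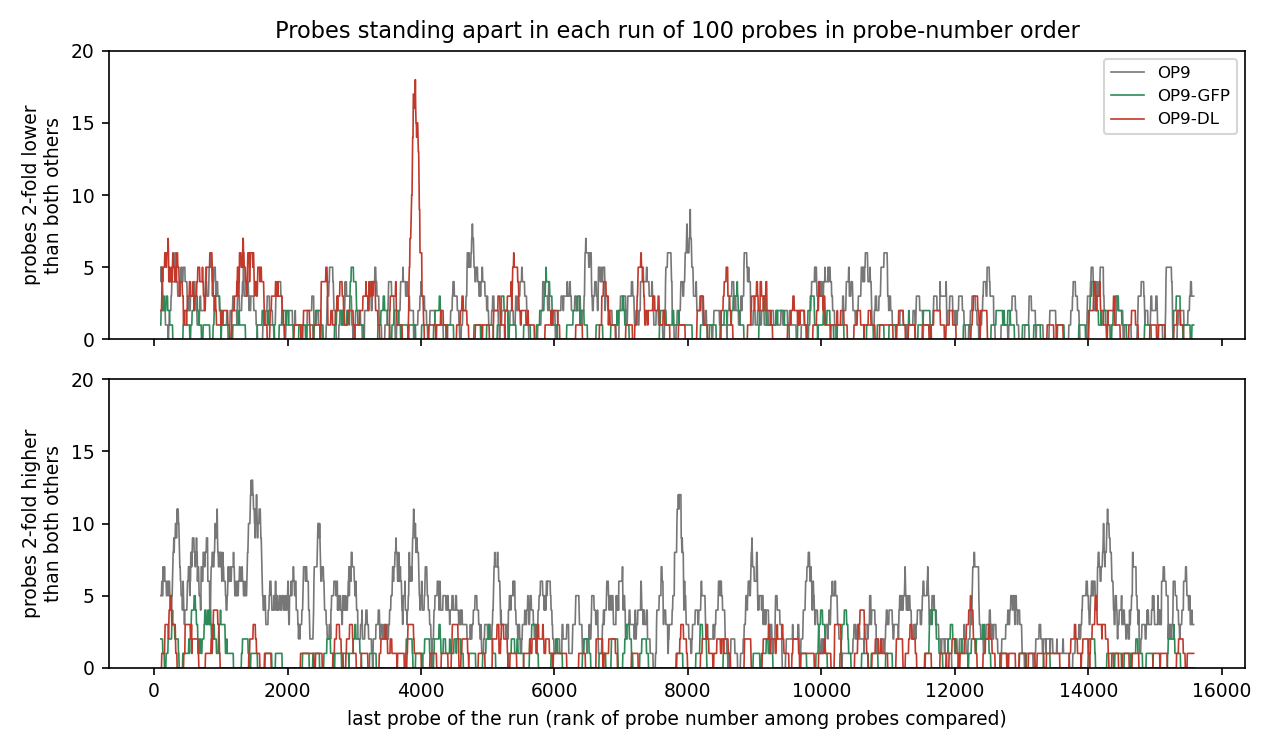
Number of probes at least 2-fold lower (upper panel) or higher (lower panel) on 1 array than on both others within each run of 100 compared probes (vertical axis), along the order of probe numbers (horizontal axis), with 1 coloured line per array. The lower probes of OP9-DL reach 18 in 1 narrow stretch, while its higher probes stay at 5 or fewer along the whole order.

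The genes furthest from both controls came from many families. On the higher side, the first by the smaller of both folds was Xmr, a germ cell gene with near-identical copies that its probe may not separate, at 7.2, 3.6 and 314.5. Tpsab1, a mast cell tryptase, read 20.6, 9.0 and 818.9, and Cd48, a surface partner of the CD244 receptor, read 2.1, 3.0 and 114.4. All of these were under the array median of 20 in OP9-GFP, and their folds ran from 38.1 to 91. The uncharacterised genes 1700024B05Rik (16.4, 9.2 and 227.2) and 1700016K19Rik (5.4, 7.7 and 71.8) were also among the first 15.

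On the lower side, Akip1, which binds protein kinase A, read 224.8, 87.8 and 1.7, and Eva1b, a membrane protein, read 558.9, 570.5 and 13. Pxdc1 (122.8, 233.6 and 2.9) and Pxylp1, a xylose phosphatase of proteoglycan synthesis (144.6, 148.2 and 4.3), were low on OP9-DL alike. Ddit4l, an inhibitor of growth signalling through mTOR, read 160.9, 98.2 and 8.2. For all but Ddit4l and Eva1b the OP9-DL value lay below the brightness limit of 6.13. Arl16 (23.6, 23.1 and 1.3), AI837181 (62.0, 57 and 5.6) and Trim39 (32.6, 23.8 and 2.8), also among the first 15, lie in the crowded probe stretch.

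The members are described below by function. Where a count is given by function, the group was put together from the members after they were known, so it has no count of compared genes and its split between higher and lower says nothing about genes outside it. Counts on lists name the compared genes of the list and are set beside all 11359 compared genes, of which 1.03% were higher and 1.73% lower. For the 4 lists drawn up after the members were known, a larger share follows in part from that choice. It cannot be read as a result about such genes. The other 29 lists were chosen with earlier results of these data known, so their shares are descriptions too.

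Of the Notch pathway, only 2 ligands were members, and 1 of these is Dll1, the gene that defines the line. Among 8 compared ligands, Dll1 and Dlk1 were higher. Dlk1, a Delta-like protein without the domain that activates Notch and a known brake on fat cell formation, read 8.1, 2.2 and 53.2, so 6.57-fold and 24.2-fold higher. OP9-GFP was here the lowest line. None of 27 compared receptors and processing genes and none of 14 compared Notch targets was a member. Over all compared genes 1.03% were higher and 1.73% lower, so lists this short can hold none without differing from the rest. The targets' median difference was 0.15 against OP9 and 0.10 against OP9-GFP on the log2 scale, where all compared genes had medians of 0.00 and -0.03. Of the targets, 3 were at least 2-fold above OP9 and 0 above OP9-GFP, against 501 and 256 of all 11359 compared genes. At least 2-fold below OP9 or OP9-GFP were 0 targets.

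Among the higher genes were 4 that process prohormones, together with secreted peptides and growth factors. Prohormone convertases cut peptide precursors in the secretory pathway of neuroendocrine cells, and carboxypeptidase E trims the ends left by the cut. Pcsk2, one such convertase, read 10.6, 16.5 and 237.8, which was 22.4-fold and 14.4-fold higher in OP9-DL. Scg5, the 7B2 protein that Pcsk2 needs to mature, was dim and higher at 4.6, 4.3 and 13.8. Cpe, carboxypeptidase E, was already among the brighter genes in both other lines (1009.1 and 1165.7) and read 2710.9 in OP9-DL, 2.69-fold and 2.33-fold higher.

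Pcsk6, a convertase that also acts on growth factor precursors, read 10.8, 15 and 41.6. In these 4 genes both control lines lay within 2-fold of each other and OP9-DL stood alone. The rest of the set was not apart: Furin (19.8, 23.6 and 22.2), Pcsk7 (65.9, 58.2 and 54.7) and the amidating enzyme Pam (65.3, 32.2 and 61.6) were within 2-fold of both control lines. Of 12 compared genes on the list of prohormone processing, 4 were higher and 0 lower, against 1.03% and 1.73% of all compared genes. That list was drawn up after the members were known, and Scg5 passed the brightness limit only through its OP9-DL value.

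Secreted factors that were higher included Igf1, insulin-like growth factor 1 (10.6, 19.7 and 106.5), at 10.05-fold and 5.41-fold. Nppb, the precursor of a natriuretic peptide, read 4.1, 4.6 and 27.4, and was near the bottom of the scale in both control lines. Fst encodes follistatin, which binds and blocks activins, and read 152.5, 165.8 and 387.2. Both control lines agreed within 1.5-fold for Nppb and Fst, but not for Igf1, in which OP9-GFP lay between OP9 and OP9-DL. Sorcs2, a sorting receptor of the Vps10 family, was 6.11-fold and 5.22-fold higher (12.3, 14.4 and 75.2), while its relative Sorcs1 was dim and lower (11.5, 7.8 and 3.9). Other secreted factors were lower: Pdgfc, a platelet-derived growth factor in the crowded probe stretch, read 73.1, 29.5 and 4.4, and Stc1, stanniocalcin 1, read 49.8, 7.9 and 3.8. Nrn1, neuritin, in the same stretch, read 455.2, 284.6 and 43.0. Syt13, a synaptotagmin, read 861.6, 633.7 and 216.1, and Ece1, which cuts the endothelin precursor, read 662.6, 433.4 and 205.5.

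Imprinted genes, which are transcribed from only the maternal or only the paternal copy and many of which act on fetal growth, formed another group. Besides Dlk1 they were Plagl1, H19, Mest and Slc38a4. Plagl1, a zinc finger factor, read 7.5, 18.6 and 105.3, 14.04-fold and 5.66-fold higher. H19, a long noncoding RNA, read 13.8, 40.3 and 167.6, 12.1-fold and 4.16-fold higher. Mest, an enzyme-like protein of mesoderm, read 61.0, 30.9 and 273.7, 4.49-fold and 8.86-fold higher.

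Slc38a4, an amino acid transporter, read 21.1, 58.7 and 120.3. In Plagl1, H19 and Slc38a4 the OP9-GFP line was already at least 2-fold above OP9, so OP9-DL stood at the end of a series of 3 levels, whereas in Mest and Dlk1 the OP9-GFP line was the lowest. Other imprinted genes were not members. Igf2, the neighbour of H19, read 4.7, 14.8 and 16.2, Meg3, the neighbour of Dlk1, read 156.1, 87.8 and 95.6, and Cdkn1c read 41.8, 4.7 and 3.2. Of 23 compared imprinted genes, 5 were higher (21.7%) and 1 lower (4.35%), against 1.03% and 1.73% of all compared genes. The lower one was Commd1 (31.9, 51.8 and 11.1), whose other, much brighter probe read 915.0, 994.5 and 710.7. This list was drawn up after the members were known, too.

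Several higher genes are better known from blood cells than from stroma. Besides Tpsab1 and Cd48, they include Cd163l1, a scavenger receptor, at 2.4, 16.1 and 50.9, and C3ar1, the receptor for the complement fragment C3a, at 6.8, 19.3 and 44.9. Selp, the adhesion molecule P-selectin of platelets and endothelium, read 9.9, 20.4 and 75.8. In all of these 3 the OP9-GFP line was at least 2-fold above OP9, and OP9-DL was highest by 3.16-fold, 2.33-fold and 3.72-fold over it. Epor, the erythropoietin receptor (15.8, 10.3 and 36.8), and Tlr2, a receptor for bacterial lipopeptides (20.7, 18.2 and 47.0), were within 2-fold in both control lines. Ccl25, a chemokine that draws developing T cells, read 12.6, 14.6 and 36.6, and Gimap6, a GTPase of lymphocytes, read 6.5, 3.3 and 24.3. Lower in this group were Limd2 (343.3, 371.9 and 92.8), Il12rb1, a chain of the interleukin-12 receptor (28.6, 17.2 and 4.6), and the dim Gzme, a granzyme (19.5, 12.6 and 2.0), and Camp, an antimicrobial peptide (19.4, 14.7 and 3.6).

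Markers of blood cells were measured beside them. Of 17 mast cell markers on the array 7 were bright enough to compare, and Tpsab1 was the 1 member. Their summed intensity was 207.7, 162.9 and 982.4, and without Tpsab1 it was 187.1, 153.9 and 163.5. Kit was blank on the OP9-GFP and OP9-DL arrays, and Cpa3 (4.9, 8.1 and 6.7) and Tpsb2 (1.1, 2.1 and 1.8) were near the bottom of the scale on all 3. Gata2 (85.9, 55.9 and 53.1) and Mcpt8 (34.1, 37.8 and 45.3) read above the array median on all 3 and were not members. Of 26 other blood cell markers 11 were compared, and Cd48 was the 1 member. Their sum was 328.9, 298.0 and 413.0, and 326.8, 295.0 and 298.6 without Cd48, while Ptprc, which encodes the common leukocyte antigen CD45, read 2.1, 2.5 and 2.8. Of 14 endothelial markers on the array 4 were compared, and of 10 epithelial markers 4, and none was a member. Markers too dim to compare could not be members. The summed intensities were 107.2, 119.8 and 122.9 for the endothelial and 242.9, 267.5 and 308.5 for the epithelial markers. Most of the epithelial sum was Cldn4 (151.0, 172.1 and 219.2).

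**Figure D3:**
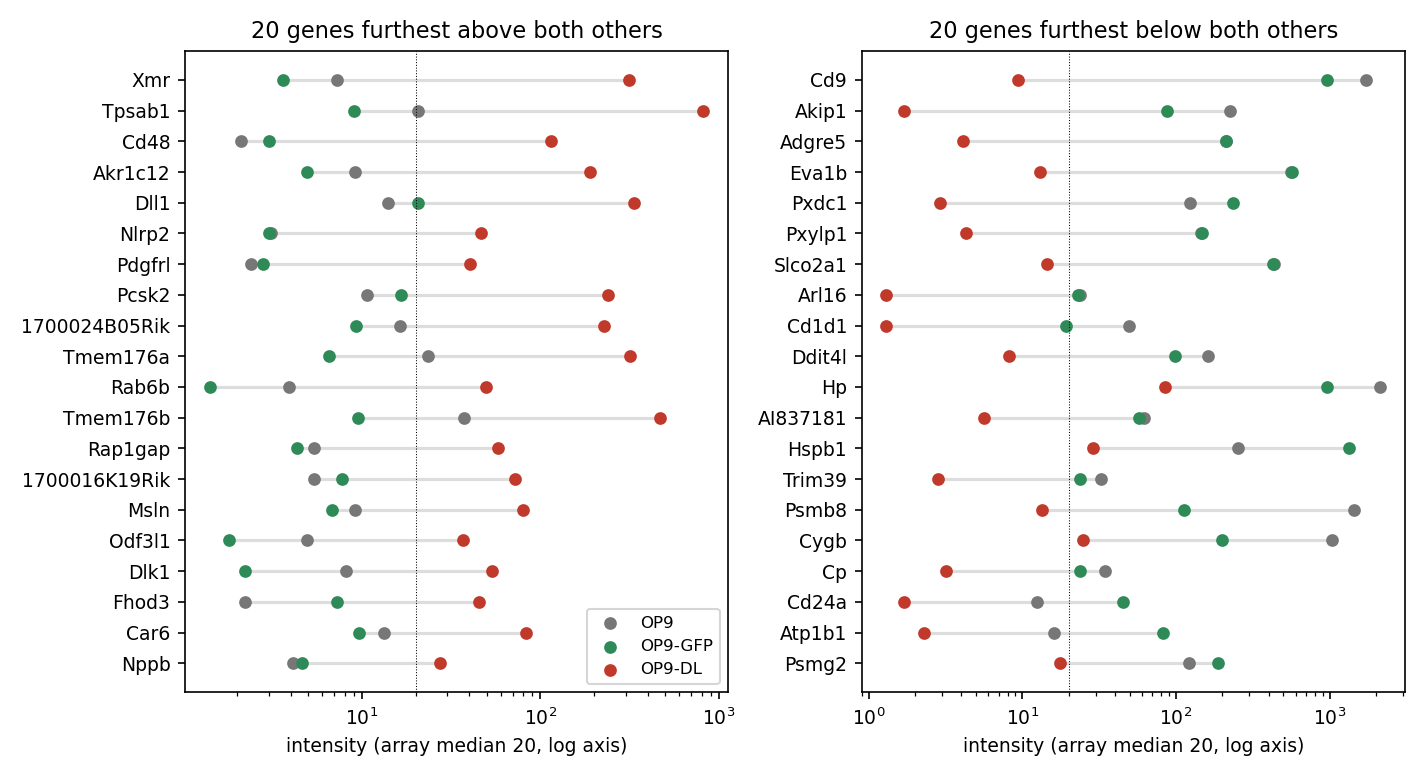
Intensity (log axis) with 1 point for each of the 3 arrays, for the 20 named genes in each direction with the largest smaller fold. The OP9-DL point lies to the right of both others in the higher genes and to the left in the lower ones, and in many of them the points for OP9 and OP9-GFP lie close together.

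Surface and junction proteins went both ways. Of 35 compared adhesion molecules fixed as a list, 4 were higher (Alcam, Cd48, Cdh2 and Selp, 11.4%) and 1 lower (Adgre5, 2.86%), against 1.03% and 1.73% of all compared genes. None of 11 compared integrins was a member. Alcam, an immunoglobulin-family molecule that binds CD6 on lymphocytes, read 13.9, 5.1 and 58.4, 4.20-fold and 11.5-fold higher. Cdh2, N-cadherin, read 29.4, 20.7 and 118.5, 4.03-fold and 5.72-fold higher.

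Msln, mesothelin of the lining of body cavities, read 9.1, 6.8 and 80.3, 8.82-fold and 11.8-fold higher. Cldn11, a tight junction claudin, read 6.4, 24.5 and 80.2, and OP9-GFP stood between the other lines. Both sides of 1 ephrin pair were higher: the receptor Epha2 (74.2, 73.9 and 158.1) and its ligand Efna1 (27.0, 21.3 and 63.4). Another receptor of that family, Epha7, was dim and lower. Epb41l4b, a protein that ties the membrane to the cytoskeleton, was higher (31.8, 28.2 and 99.1).

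Of the lower surface proteins, Cd9 was the extreme at 1722.4, 963.3 and 9.3, 185-fold and 104-fold lower. Adgre5, the adhesion receptor CD97, read 210.5, 211.2 and 4.1. Cd9 is a tetraspanin, a class of membrane proteins that gather integrins and other partners into patches. Among 18 compared, Tspan9 was higher (19.3, 35.3 and 71.7) and 16 were not members, among them the bright Cd81 (3279.4, 1996.7 and 3634.7) and Cd63 (6470.2, 7860.5 and 11376.2). Cd24a, a small anchored glycoprotein, read 12.4, 44.8 and 1.7, so it was lower by 7.29-fold and 26.4-fold. Emb, embigin, a partner of lactate transporters, was bright and graded at 941.1, 420.4 and 181.0. Tln2, a talin that links integrins to actin, read 110.2, 88.1 and 28.3, and Cgnl1, a junction protein, read 91.3, 93.0 and 16.6. Tns4, a tensin at integrin contacts, read 31.7, 14 and 4.3.

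Enzymes that act on steroids, aldehydes and lipids counted 10 higher and 9 lower members. Hsd11b1 regenerates active glucocorticoid from its inactive form, and it read 19.5, 210.4 and 1019.9. All 3 levels differed widely here: OP9-GFP was above OP9, and OP9-DL was 4.85-fold above OP9-GFP. Akr1c13, an aldo-keto reductase, read 35.0, 6.9 and 147.2, beside Akr1c12 (9.1, 4.9 and 189.4), which was 20.8-fold and 38.7-fold higher. Both lie next to each other in the genome and resemble each other closely, so their probes may not separate them. Their relative Akr1c18 was not apart (11.1, 6.9 and 6.9).

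Aldh1a7, an aldehyde dehydrogenase, read 15.4, 34.6 and 154.7, while Aldh1a1, a close relative, was at 3.4, 4.0 and 4.6, below the brightness limit. Dgat2, which makes triglycerides, read 24.9, 41.7 and 84.2, and Smpd3, a sphingomyelinase, read 2.4, 9.8 and 28.7. Lower lipid and small-molecule enzymes were Scd2, a fatty acid desaturase (535.6, 295.2 and 145.1), Nnmt, which methylates nicotinamide (279.1, 205.2 and 91.5), Sphk1, a sphingosine kinase (101.5, 30.7 and 13.9), and Plpp1, a lipid phosphatase (1208.0, 1045.6 and 499.6). Aldh3b1, an aldehyde dehydrogenase (115.8, 64.3 and 25.9), Ugt1a6a, which joins small molecules to glucuronic acid (109.4, 69.7 and 30.5), and Pnkd (65.1, 45.6 and 18.5) were lower as well. Asah2, a ceramidase (27.7, 11.1 and 2.6), and Sumf2 (20.6, 10.1 and 2.7) lie in the crowded probe stretch. Among 45 compared adipocyte and lipid genes 2 were higher and 2 lower, with medians of -0.16 and 0.01 on the log2 scale.

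Tmem176a and Tmem176b, which encode related membrane proteins of dendritic cells and other tissues, were higher by similar folds. Tmem176b read 37.2, 9.5 and 465.9, 12.5-fold and 49.0-fold higher, and Tmem176a read 23.4, 6.5 and 317.7, 13.6-fold and 48.9-fold higher. OP9-GFP was the lowest line in both. These genes lie head to head: the 120 bases before a start of Tmem176a and those before a start of Tmem176b, read on opposite strands, share 108 bases. The sequence is shown because 1 stretch serves both members, and beside it stand those of Il6 and Il1rn, members in the other direction with the same letters. Capitals mark a core of NF-kappaB sites, GGG, any 2 bases and TTTCC, or its reverse complement. All are from RefSeq, build GRCm38.p6, 5′ to 3′ on the strand named, at chr6:48841363-48841482 (plus, Tmem176a), chr6:48841375-48841494 (minus, Tmem176b), chr5:30012994-30013113 (plus, Il6) and chr2:24345251-24345370 (plus, Il1rn). RefSeq gives Tmem176a 2 starts, Tmem176b 3, Il6 1 and Il1rn 3, and each shown window is the 1 of its gene that holds the letters within 120 bases.
Tmem176a: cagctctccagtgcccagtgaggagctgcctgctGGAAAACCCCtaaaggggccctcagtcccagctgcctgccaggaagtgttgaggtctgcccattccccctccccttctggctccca
Tmem176b: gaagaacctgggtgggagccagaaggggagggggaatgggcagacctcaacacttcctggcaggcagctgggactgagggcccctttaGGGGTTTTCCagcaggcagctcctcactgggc
Il6: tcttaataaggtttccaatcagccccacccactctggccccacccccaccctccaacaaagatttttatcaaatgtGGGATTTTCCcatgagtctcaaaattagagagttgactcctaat
Il1rn: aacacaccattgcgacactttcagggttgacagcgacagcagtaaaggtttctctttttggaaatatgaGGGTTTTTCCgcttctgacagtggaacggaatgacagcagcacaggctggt

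Both strands of the 250 bases before each start were searched for 5 motifs, over 122 windows of 89 higher genes, 185 windows of 141 lower genes and 11590 windows of 9160 compared genes. Genes with several starts give several windows, which can overlap. By gene, the NF-kappaB core stood in 6 of 89 higher genes (6.74%), 8 of 141 lower genes (5.67%) and 152 of 9160 compared genes (1.66%). By window the shares were 6.56%, 4.86% and 1.37%. The 8 windows of higher genes hold 5 separate sites, since Mest and Rap1gap each have the same site before 2 starts and Tmem176a and Tmem176b share theirs, and those of lower genes hold 9. The higher genes were C3ar1, Mest, Pcsk2, Rap1gap, Tmem176a and Tmem176b, and the lower ones were Casp4, Cd9, Ece1, Fetub, Il1rn, Il6, Serp2 and Traf3, so the letters occurred on both sides.

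The core of Rbpj sites, TGGGAA, stood in 20.5% of higher, 27.6% of lower and 20.4% of all windows. A core of interferon response elements, GAAA, any 2 bases and GAAA, stood in 0.82%, 4.32% and 2.58% of them, TGACGTCA, the cyclic AMP response element, in 0.82%, 2.16% and 2.42%, and TATAAA, the TATA box, in 12.3%, 11.4% and 7.66%. The Rbpj and NF-kappaB cores can overlap by a few bases. A match is a description of the letters and not a measured binding site.

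Genes of muscle and the cytoskeleton held 12 higher and 11 lower members. Acta1, the actin of skeletal muscle, read 7.5, 50.7 and 226.0, graded over the 3 lines. Fhod3, an actin-nucleating formin (2.2, 7.2 and 45.1), and Arc, an activity-regulated protein of neurons (4.5, 12 and 28.8), were graded as well. Kank3 (20, 8.2 and 45.6) and the dim troponin Tnnt3 (6.7, 6.7 and 19.9) were higher too. Bright genes with modest differences were also among the higher ones, namely Cav1, the coat protein of caveolae (918.1, 1002.8 and 2212.9), Crip2, a LIM protein (670.6, 755.2 and 1591.4), and Pdlim2, a LIM protein at actin fibres (843.8, 697.2 and 1701.8). In each of these 3 both control lines lay within 1.5-fold of each other. Of 30 compared smooth muscle and contractile genes, 1 was higher, Acta1 (3.33%), and 1 lower (3.33%), against 1.03% and 1.73% of all compared genes. The lower one was Cspg4, the proteoglycan NG2 of pericytes (25.1, 90.0 and 9.1). That list's median was 0.63 on the log2 scale against OP9 and -0.08 against OP9-GFP. Fhl2, a LIM cofactor, was lower (537.1, 652.9 and 133.1). So were Dbn1, the actin-binding drebrin (129.3, 99.8 and 33.8), Alpk2, a kinase (15.6, 22.8 and 3.9), and the tubulins and tubulin partners Tubd1 (26.4, 22.8 and 8.8) and, in the crowded probe stretch, Tubgcp2 (124.5, 102.3 and 36.5).

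Growth arrest and stress genes split as well. Gadd45a and Gadd45b, which slow the cell cycle after stress, read 114.2, 73.1 and 338.9, and 185.8, 315.4 and 661.9. Trib3, a pseudokinase induced by amino acid shortage, read 31.6, 19.6 and 103.0. Gadd45g, the remaining gene of that family, was bright and not apart (2996.9, 5851.2 and 6146.8), nor were Cdkn1a (470.4, 315.7 and 487.2) and Atf4 (1635.9, 2368.3 and 2457.1).

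Lower were Hspb1, a small heat shock protein, which read 253.4, 1332.0 and 28.9 and was thus also far apart between the control lines, and Btg2, an antiproliferative gene (62.6, 46.3 and 21.8). Rgcc, a regulator of the cell cycle, read 410.4, 87.3 and 33.8. Rps27l, a p53 target related to a ribosomal protein, was among the brightest members at 5837.0, 3163.9 and 1553.5. Among 53 compared cell cycle genes 1 was lower (1.89%, against 1.73% of all compared genes) and 0 were higher. The lower one was Tk1, thymidine kinase (1498.2, 1200.0 and 589.2). The median of that list was 0.32 against OP9 and -0.46 against OP9-GFP, so it differed in sign between the controls.

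Factors that act on transcription and chromatin counted 6 higher and 11 lower members. Hmga2, a chromatin protein of embryonic and transformed cells, read 206.9, 273.4 and 847.0. Osr1, a zinc finger factor of mesenchymal progenitors, read 392.3, 416.3 and 1026.8. Btbd11 read 5.9, 6.9 and 22.2. The lower factors included the nuclear receptors Nr4a1 (402.1, 212.1 and 63.8) and Nr4a2 (81.1, 42.0 and 17.5). These were the 2 members among 23 compared immediate early genes (8.7% lower, against 1.73% of all compared genes). Irx3, a homeobox factor, read 71.4, 43.9 and 12.2, and Ahr, the aryl hydrocarbon receptor, read 34.0, 28.9 and 9.5. Zfp521, a zinc finger factor of blood and bone progenitors in the crowded probe stretch, read 23.7, 13.2 and 2.4. Chromatin proteins were lower too, namely Cdyl (40.4, 22.6 and 5.8), the histone methyltransferase Nsd1 (32.9, 32.1 and 9.3) and the dim Phf19 (11.7, 12.4 and 2.8).

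Among the lower members, 16 were put by function with inflammation and the acute phase. Ccl25, Tlr2, C3ar1 and Nlrp2, which are higher and also act in inflammation, were placed with the blood and immune cell proteins. Acute phase proteins are secreted in inflammation, in the liver chiefly under the control of interleukin-6, which signals through Stat3. Hp, haptoglobin, read 2130.4, 963.7 and 84.2, 25.3-fold and 11.4-fold lower in OP9-DL. Cp, the copper protein ceruloplasmin, read 34.3, 23.8 and 3.2, 10.7-fold and 7.44-fold lower. Agt, angiotensinogen, read 108.1, 71.6 and 13.2, 8.19-fold and 5.42-fold lower.

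Of the interleukin-6 pathway, Il6, Osmr and Stat3 were members and several other genes were not. Il6 read 88.0, 174.7 and 13.7, 6.42-fold and 12.8-fold lower, and Il1rn, the antagonist of the interleukin-1 receptor, was lower by 6.29-fold and 12.2-fold. Osmr, the oncostatin M receptor that pairs with the same signalling chain, read 376.6, 323.4 and 107.0. Stat3 read 324.2, 179.5 and 88.4, just past the threshold against OP9-GFP at 2.03-fold. These genes differ in how OP9-GFP stood: above OP9 for Il6 and Il1rn, and below it for Hp, Stat3 and Osmr.

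Ptx3, a soluble pattern recognition protein, read 150.6, 257.9 and 36.4. Nfkbiz, a nuclear cofactor of NF-kappaB that acts on Il6 and other late genes, read 112.1, 59.5 and 26.6, and Tnfaip6, which binds hyaluronan, read 156.0, 132.0 and 54.7. Il17ra, a chain of the interleukin-17 receptor, was far lower already in OP9-GFP (72.3, 9.2 and 3.1). The signalling chain Il6st (296.5, 232.5 and 217.0), the kinase Jak1 (410.4, 305.4 and 356.4) and the feedback inhibitor Socs3 (451.6, 352.3 and 315.3) were not members, and the receptor Il6ra was below the brightness limit. The cytokine Lif (7.5, 7.5 and 6.1) and its receptor Lifr (11.3, 11.4 and 10.2) were not members either. The acute phase genes Lcn2 (36.1, 69.0 and 46.4), C3 (18.3, 15.4 and 16.5) and Serpina3n (22.2, 21.4 and 25.8) were not apart. On a list of the acute phase and the interleukin-6 family, drawn up after the members were known, 10 of 22 compared genes were lower (45.5%) and 0 higher, against 1.73% and 1.03% of all compared genes, with medians of -0.48 and -0.50 on the log2 scale. On the list of chemokines and inflammatory genes, 4 of 33 were lower (12.1%) and 1, Ccl25, was higher (3.03%).

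On a list of inflammatory cell death, drawn up after the members were known, 3 of 13 compared genes were lower (23.1%), 1 was higher (7.69%) and 9 were not members. Gsdmd, the pore protein gasdermin D, read 91.9, 44.5 and 10.3, 8.92-fold and 4.32-fold lower. Casp4, a caspase that senses bacterial lipopolysaccharide and cuts gasdermin D, read 201.0, 15 and 7.3, and its neighbour in the genome, Casp12, read 101.4, 27.2 and 12.8. In both caspases the greater step lay between OP9 and OP9-GFP. Casp1 (12.9, 17.0 and 10.5) and Nlrp3 (10.7, 14.3 and 11.4) were not apart, nor were Ripk3 (140.9, 155.2 and 97.9), Mlkl (248.0, 124.3 and 169.4), Zbp1 (149.7, 133.3 and 111.6), Casp8 (231.6, 134.6 and 148.1) and Gsdme (140.8, 99.9 and 102.4). The higher gene was Nlrp2, another receptor of the Nlrp family (3.1, 3.0 and 46.6), at 15.03-fold and 15.5-fold. Nol3, an inhibitor of cell death that is on no list, was lower (260.1, 219.0 and 87.8).

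By function, 11 lower members were interferon-induced or antiviral genes. In 10 of these 11, OP9-GFP was already at least 2-fold below OP9, so OP9-DL was the lowest of 3 separate levels. Psmb8, a subunit of the immunoproteasome, read 1449.2, 112.2 and 13.3, 109-fold and 8.44-fold lower. Ly6e, a small anchored surface protein, read 1643.8, 169.6 and 30.4, 54.1-fold and 5.58-fold lower. Ifi44 read 324.4, 12.1 and 2.5, 130-fold and 4.84-fold lower.

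Unc93b1, which carries nucleic acid-sensing Toll-like receptors to the endosome, read 93.1, 23.8 and 6.0, and Parp12, an antiviral ADP-ribosyltransferase, read 256.4, 49.8 and 16.5. Shfl, an inhibitor of viral frameshifting, read 59.6, 6.4 and 1.5, and Cd1d1, which presents lipids to T cells, read 49.2, 19.3 and 1.3. Most interferon genes were low in OP9-DL too, but without a further 2-fold drop below OP9-GFP. Of 45 compared on the list, 36 were at least 2-fold below OP9, but against OP9-GFP 3 were lower and 5 were higher. Over all 11359 compared genes, 828 were at least 2-fold lower in OP9-DL than in OP9, 349 lower than in OP9-GFP and 256 higher than in OP9-GFP. By probe, these shares were 6.92%, 2.73% and 2.31%. The list's median was -2.41 against OP9 and 0.15 against OP9-GFP. Its members that set OP9-DL apart were Cd1d1, Ifi44 and Psmb8.

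**Figure D4:**
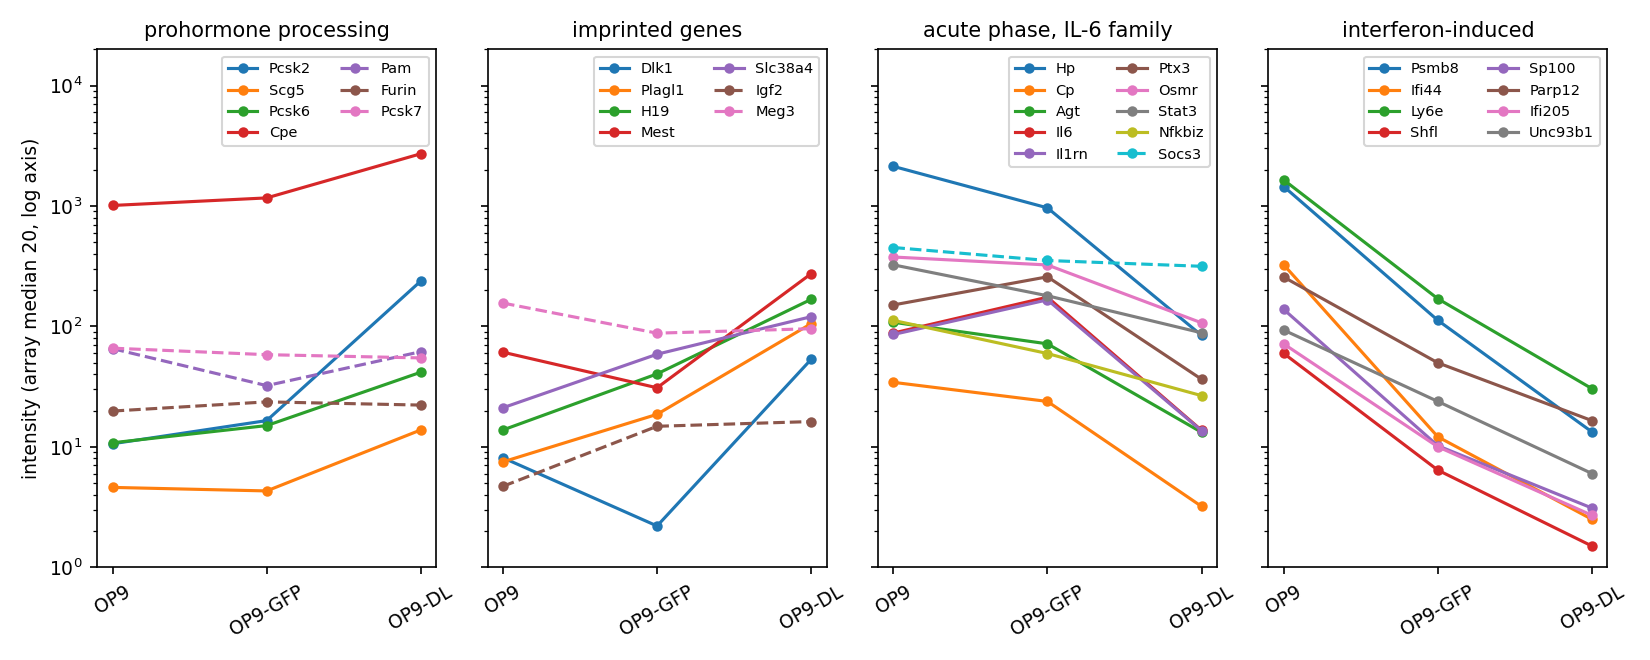
Intensity (log axis) on the 3 arrays for members of 4 function groups, 1 panel each (solid lines) and for genes of the same groups that are not members (dashed lines), 1 value per array. Pcsk2 and the imprinted members end high at OP9-DL, the acute phase members end low, and the interferon members step down from OP9 to OP9-GFP and again to OP9-DL.

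Matrix proteins and the enzymes that shape the matrix counted 6 higher and 13 lower members. Col3a1, the fibrillar collagen III, read 660.5, 936.4 and 195.9, and Mgp, an inhibitor of calcification, was among the brightest members at 6183.4, 6008.1 and 2562.5. Tgfbi, a matrix protein that binds integrins, read 144.4, 47.2 and 8.2, 17.6-fold and 5.76-fold lower. Srpx2, a secreted sushi-domain protein, read 430.0, 357.9 and 70.9. Of 68 compared matrix genes 5 were lower (7.35%) and 1 was higher (1.47%), with medians of -0.32 and -0.15 on the log2 scale. The higher one was Col15a1, whose other probe read slightly lower on OP9-DL (61.7, 57.3 and 45.0).

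The proteases Ctsk, the collagen-degrading cathepsin of osteoclasts (165.7, 90.2 and 25.4), Ctsc (27.1, 38.6 and 4.6), Mmp13 (39.8, 6.9 and 2.9) and Plat, the tissue plasminogen activator (31.7, 21.9 and 7.5), were lower. Mmp7, by contrast, was higher at 12.7, 10 and 50.1, as was Lamb3, a laminin chain (4.9, 11.8 and 30.7). Serpinb9f and Serpinb9g, neighbouring protease inhibitors of a family of near-identical genes, read 124.9, 121.2 and 295.9, and 20.3, 23.7 and 129.0. Their probes may not separate members of the family.

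A few bone-related genes were lower. Alpl, the alkaline phosphatase of mineralising cells, read 91.6, 101.3 and 15.1, 6.07-fold and 6.71-fold lower, with both control lines alike. Tnfsf11, the ligand RANKL that drives osteoclast formation, read 332.9, 66.7 and 22.4, and its decoy receptor Tnfrsf11b was not apart (308.5, 1047.3 and 1252.9). Of 24 compared osteoblast and cartilage genes 2 were lower (8.33%) and 0 higher. Sfrp4, a secreted Wnt inhibitor, was lower at 65.8, 24.2 and 3.8. It was the 1 member among 24 compared Wnt genes (4.17% lower, against 1.73% of all compared genes).

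Of the lower members, 3 lower members act on prostaglandins. Slco2a1, which carries prostaglandins into cells, read 431.9, 427.0 and 14.4 and was lower by 29.99-fold and 29.7-fold. The prostaglandin receptors Ptger4 (41.0, 36.9 and 17.2) and Ptgfr (21.3, 7.9 and 3.1) were lower as well, whereas the receptor Ptger1 (18.3, 7.0 and 6.2) and the synthases Ptgs1 (864.8, 1015.3 and 756.5), Ptgs2 (13.9, 88.7 and 38.4) and Ptges (59.2, 47.2 and 36.9) were not members. Ackr3, a scavenger receptor for the chemokine Cxcl12, read 665.9, 253.8 and 56.4, 11.8-fold and 4.50-fold lower. Cxcl12 itself was bright and not a member (3720.4, 4411.3 and 1997.4). Of 39 compared G protein-coupled receptors and related genes 4 were lower and 0 higher, and 1 of the 4, Gprc5b, lies in the crowded probe stretch.

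Among signalling genes, Rab6b, a small GTPase of Golgi transport (3.9, 1.4 and 49.8), and Rap1gap, which switches off the GTPase Rap1 (5.4, 4.3 and 58.0), were higher. Both were near the bottom of the scale in both control lines. Pde4b, which breaks down cyclic AMP, was lower (274.7, 81.9 and 27.6), as was Rab38, a GTPase of pigment granules (75.2, 44.7 and 6.6), and Gnb4, a G protein subunit (120.9, 102.6 and 36.3). Rps6ka1, a kinase of the growth factor pathway, was higher (27.6, 28.7 and 67.2), while its other probe read 36.0, 35.5 and 41.5. In the crowded probe stretch, Rgs20 (6.1, 27.4 and 75.7) and Dyrk3 (6.0, 8.8 and 20.3) were higher and Gprc5b (80.0, 29.0 and 5.0) was lower.

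By function, 5 lower members were redox and haem proteins. Cygb, cytoglobin, read 1036.2, 198.6 and 24.7, 42.0-fold and 8.04-fold lower. Sod1, the cytosolic superoxide dismutase, read 320.5, 274.9 and 119.8, and Cyba, a subunit of the NADPH oxidases, read 402.4, 349.4 and 124.1. In these last genes both control lines were alike. Gstm1 and Gstk1, glutathione transferases, read 160.7, 76.0 and 36.8, and 90.5, 69.7 and 33.4. Lower transport genes included Aqp1, a water channel (792.0, 717.3 and 300.4), Kcnn4, a calcium-gated potassium channel (124.7, 134.0 and 24.9), and Atp1b1, a subunit of the sodium pump (16.0, 82.7 and 2.3). Slc11a1, a metal transporter of phagocytes, read 104.9, 117.8 and 37.0, and Abca7, in the crowded probe stretch, read 35.9, 14.4 and 3.0. Slc25a21, a mitochondrial carrier, was higher (46.8, 43.0 and 106.1), as was the dim Slc7a2, an arginine transporter (4.4, 4.5 and 13.4). By function, 14 lower members serve tasks of every cell, and 4 of these lie in the crowded probe stretch, Eif3i, Psmg2 (121.7, 188.0 and 17.5), Srfbp1 (33.9, 51.5 and 7.1) and Iws1 (37.1, 46.0 and 10.7). Outside it was Tmed4, a carrier of secretory cargo (240.2, 206.8 and 40). These 14 were picked as members and do not describe genes of this kind at large.

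The position of OP9-GFP differed between the higher and the lower members. Among the 151 higher probes, OP9-GFP was within 2-fold of OP9 in 117 (77.5%), at least 2-fold above it in 19 (12.6%) and at least 2-fold below it in 15 (9.93%). Among the 229 lower probes it was within 2-fold in 161 (70.3%), above in 12 (5.24%) and below in 56 (24.5%). Over all 15581 compared probes the shares were 88.4% within, 4.86% above and 6.75% below. A lower member has to be low against both controls whatever their order, so these shares describe the members and were not tested.

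A further probe on the array existed for 10 member genes, and no gene had both probes among the members. Of 9 further probes bright enough to compare, 5 differed from both controls in the member's direction. Loxl4, a lysyl oxidase, was higher on both its probes (58.3, 115.9 and 257.9, and 10.8, 26.9 and 52.7). Ifi205 was lower on both (71.5, 10 and 2.7, and 78.0, 17.0 and 13.3). Col15a1, a basement membrane collagen, was higher on 1 probe (109.4, 112.0 and 477.6) and slightly lower on the other (61.7, 57.3 and 45.0).

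Pdgfrl, whose member probe read 2.4, 2.8 and 40.4, read 24.6, 35.2 and 21.3 on its other probe, and Stt3b, a subunit of the oligosaccharide transferase, read 170.0, 113.6 and 49.0 against 229.1, 225.8 and 244.3. Pard3b disagreed as well, at 4.7, 4.7 and 11.1 against 10.4, 12.6 and 8.7. Direction thus depended on the probe in Col15a1, Pdgfrl, Stt3b and Pard3b. For the members without a further probe, a single probe is the whole measurement.

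Some members were neighbours along the chromosome. When the 11312 compared genes with a known place were put in order, 310 of them members, 17 adjacent pairs were both members, and 12 pairs went the same way. How many such pairs 310 genes at random places would give was not worked out, so these counts only describe the members. Higher pairs were Akr1c13 with Akr1c12, Serpinb9f with Serpinb9g, Tmem176b with Tmem176a, Smox with Prnp, Slc7a2 with Pdgfrl and Tm2d3 with Pcsk6. The probes of the Akr1c pair and of the Serpinb9 pair may not separate their genes. Lower pairs were Casp4 with Casp12, Ctsc with Rab38, Alpl with Ece1, Mgp with Arhgdib, Ifi44 with Ptgfr and Aldh3b1 with Unc93b1. Pairs in opposite directions included Ly6d with Ly6e, Alcam with Nfkbiz and Slco2a1 with Rab6b. Prnp, the prion protein, is the brightest of the higher neighbours (730.7, 689.1 and 1850.6).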

How the data were processed

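The deposited intensity values were linear, and the authors scaled them to a median of 20 on each array, as the values themselves show. Per the labels' protocols, total RNA was amplified to amino allyl RNA and coupled to Cy5 for Toray arrays. The labels name no scanner, background correction or rule for blank cells. Of 23473 probes, 6.32% (OP9), 6.53% (OP9-GFP) and 6.62% (OP9-DL) were blank.

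Here log2 of the deposited intensity was taken with no constant. All 3 arrays gave a value for 20775 probes. Those whose mean log2 reached the 25th percentile (2.62, or 6.13 as an intensity) were compared. The number of arrays limits the precision, and only folds and counts are given. Of 16631 probes with 1 symbol, 12622 symbols were current, 3947 were renamed and 62 kept, through a gene table of GRCm38.p6. A gene with several probes counted as a member through any of them, and medians of gene lists used the mean log2 of a gene's probes.

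The members and the 29 gene lists were chosen with earlier results of these data known. The 20 function groups and 4 further lists were made after the members were known. Dll1, the 15 genes in each direction with the largest smaller difference and up to 5 per function group and direction are given with all 3 intensities, and others were added after their values were seen. The alternatives were quantile and lowess scaling, other limits on dim probes, constants added before log2, filled blanks, thresholds of 1.5-fold and 3-fold, probes with a symbol, and per-gene values. Leaving out a crowded stretch of probe numbers was chosen after the data were seen. The counting was tested on simulated data. Python 3.11.15, numpy 2.4.6, pandas 2.3.3, statsmodels 0.14.6 and matplotlib 3.10.9 were used.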

Additional observations from a re-analysis of the deposited data

How the results depend on the processing

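The counts of 151 higher and 229 lower probes were within 1.5 times of these under quantile scaling (162 and 224), lowess scaling (145 and 228), filled blanks (151 and 232), an intensity of 20 or more on the highest array (132 and 202), 2.2 added before log2 (128 and 190), and the mean (147 and 227) or brightest (148 and 226) probe per gene. They moved further with no limit on dim probes (253 higher, while 309 lower stayed within 1.5 times), a limit at the 50th percentile (73 and 139), 10 added before log2 (88 and 117), and thresholds of 1.5-fold (476 and 598) and 3-fold (60 and 100). Of 314 member genes, 9 fell short of 2-fold from both controls under quantile scaling, 10 under lowess scaling, 49 with 2.2 added and 147 with 10 added, and none changed direction under these 4. Low signal limits the result: a constant added before log2 shrinks a fold most where the values on the arrays are low. No paired analysis was possible because each line has 1 array.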
